A study of Mus musculus with 12 samples.

Results

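Expression of 9 transcription factors that set or keep macrophage (Mφ) identity was measured in Mφ sorted from mouse hearts during β-adrenergic remodeling. The members, chosen by gene symbol, were Spi1, Maf, Cebpa, Cebpb, Irf8, Klf2, Klf4, Zeb2 and Mef2c, 9 of the 24445 gene symbols in the deposited counts. All 9 passed the filter on low counts and were among the 14608 genes tested. The 12 libraries, 1 per mouse, came from C57BL6/J mice, and each of the 3 groups held 4 mice. According to the study's methods these were adult males. Control (Ct) mice carried a saline pump, and whether they were infused for 14 or 28 days was not given. Mice with early concentric hypertrophy (ECH) were infused for 14 days with isoproterenol, which activates β-adrenergic receptors (30 mg/kg/day). Mice with heart failure (HF) had received the same dose for 28 days. All hearts were digested with collagenase at warm temperature, enriched for CD45+ cells and sorted for live CD11b+ CD14+/CD64+ cells, so the values describe a surface-marker gate and not a single Mφ subset.

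PU.1, the product of Spi1, opens the enhancers of myeloid genes, and C/EBPα, IRF8, KLF4 and ZEB2 act with it or after it as progenitors become monocytes and Mφ. C/EBPα serves myeloid commitment, C/EBPβ serves inflammatory gene activation and the survival of some monocytes, and c-Maf, the product of Maf, restrains self-renewal and is linked to IL-10 and to the genes of tissue-resident Mφ. KLF2 and KLF4 are zinc-finger factors that restrain inflammatory activation in myeloid cells, and both are also quickly induced by stress, shear and tissue handling. MEF2C is a MADS-box factor that acts in monocyte fate, and it is also expressed by B cells and muscle.

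The libraries held 88466559 to 111180291 counts, and 13600 to 15940 genes were detected in each. The fewest genes were detected in HF library 1 and the next fewest in Ct library 2. The biological coefficient of variation was 60.8%, so mice of a group varied widely. Library numbers in the labels fall into a run that holds Ct and ECH replicates 1 and 2 and a run that holds HF and ECH replicates 3 and 4. What these runs are is not stated. Ct and HF share no run, so a fit with the run as a covariate links them through ECH, which spans both. The sort was checked on 9 Mφ genes, among them Cd14, Fcgr1, Csf1r and Adgre1, and none was called in any comparison. Their summed level lay between 24708 and 35250.3 CPM (counts relative to the scaled size of the library), against 122 to 521 CPM in Ct, 40.9 to 91.7 in ECH and 56.8 to 90.7 in HF for 7 B cell genes. The sum of 8 neutrophil genes was 299 to 1681 CPM in Ct, 80.9 to 602 in ECH and 94.9 to 1179 in HF, and that of 6 genes of Ly6C-low monocytes 390.2 to 798, 168 to 453 and 264 to 438. All 8 and all 6 had negative log2 fold changes in both comparisons with Ct, and none was called. Most of the Ly6C-low sum came from a single gene, Nr4a1, at 319 to 711 CPM in Ct, 112 to 395 in ECH and 222 to 396 in HF. Ct library 2 held the highest sums of B cell, neutrophil and T and NK cell genes. The part of these cells in the lower values of the factors was not tested.

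Klf2, Klf4 and Cebpb correlated with each other at r from 0.774 to 0.934 over the 12 libraries, and the sequence before their start sites is shown because they moved together. The windows are the 250 bases before the RefSeq start (GRCm38.p6), 5′ to 3′ on the gene's strand. The last 29 bases are left out for Klf2, where the GENCODE M21 gene begins earlier. Capitals mark TGACG on either strand (CGTCA when read on the gene's strand), the half-site bound by CREB and ATF factors, and, in Klf2, an element of the MEF2 type.
Klf2, chr8:72318812-72319032, plus strand: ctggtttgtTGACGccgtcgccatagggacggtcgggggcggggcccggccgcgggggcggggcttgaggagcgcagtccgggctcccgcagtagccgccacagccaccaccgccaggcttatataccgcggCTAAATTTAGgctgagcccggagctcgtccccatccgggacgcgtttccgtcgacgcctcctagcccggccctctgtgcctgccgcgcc
Klf4, chr4:55532476-55532725, minus strand: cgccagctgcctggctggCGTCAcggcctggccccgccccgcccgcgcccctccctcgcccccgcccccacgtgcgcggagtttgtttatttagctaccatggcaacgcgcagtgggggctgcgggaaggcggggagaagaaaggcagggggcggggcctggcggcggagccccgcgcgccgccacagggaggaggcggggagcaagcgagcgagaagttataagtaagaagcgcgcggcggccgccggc
Cebpb, chr2:167688665-167688914, plus strand: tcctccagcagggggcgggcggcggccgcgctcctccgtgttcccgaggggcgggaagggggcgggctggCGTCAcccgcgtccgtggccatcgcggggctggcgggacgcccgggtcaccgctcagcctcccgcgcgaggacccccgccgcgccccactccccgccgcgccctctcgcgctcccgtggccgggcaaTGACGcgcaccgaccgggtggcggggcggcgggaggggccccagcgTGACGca
TGACG stood once in Klf2, at 241 to 237 bases before the start, once in Klf4, at 232 to 228, and 3 times in Cebpb, at 180 to 176, 53 to 49 and 7 to 3. Of 32851 promoter windows of the same 250 bases in the RefSeq table, 17.8% held this half-site. It also stood in 2 of the 4 windows of Zeb2, which correlated with these 3 factors at r from 0.076 to 0.2997, and in none of Cebpa, Irf8 and Mef2c, although Mef2c correlated with Klf2 at r = 0.731 and with Klf4 at r = 0.676. The MEF2 element of Klf2, at 118 to 109 bases, reads the same on both strands, and 2.92% of windows held one. The core of the PU.1 site, GAGGAA, was in none of these 3 windows and in 23.3% of all. It stood in each of the 4 windows of Zeb2 and in 2 of the 3 of Mef2c. In the 2 Zeb2 windows with TGACG, that half-site stood at 67 to 63 and 93 to 89 bases and GAGGAA at 16 to 11 and 42 to 37. Both sites shift alike, so these 2 windows may overlap and hold the same sites. These are matches of letters, and binding was not measured. Windows were found for 7 of the 9 members, all but Spi1 and Maf.

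Levels of different genes were compared as CPM per kilobase of exon, with exon lengths from GENCODE M21, since the annotation used for counting is not given. In Ct, Klf2 stood highest at 955 ± 169 CPM per kilobase (SD, n = 4), followed by Cebpb at 721 ± 177, and their ranges overlapped. Spi1 came next at 164 ± 25.9 CPM per kilobase, below every Cebpb value. Klf4 had the same mean with a wide spread (164 ± 125), since it stood at 350.5 CPM per kilobase in Ct library 2 and at 88.7 to 121 in the other Ct libraries, below every Spi1 value. Without that library the Ct mean of Klf4 was 101 ± 17.1 CPM per kilobase (SD, n = 3). Irf8 stood at 33.7 ± 6.83 CPM per kilobase, below all Klf4 values. Maf (26.8 ± 19.1), Mef2c (21.1 ± 2.77), Zeb2 (18.2 ± 2.09) and Cebpa (15.7 ± 1.91) closed the order, each overlapping its neighbour. Without Ct library 2 the mean of Maf was 17.3 ± 2.39 CPM per kilobase (SD, n = 3), which put Maf in the 8th place, behind Mef2c in the 6th and Zeb2 in the 7th.

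In ECH and HF the first place belonged to Cebpb (589 ± 117 and 515 ± 115 CPM per kilobase) and the second to Klf2 (486 ± 166 and 474 ± 170), again with overlapping ranges. Spi1 (165 ± 20.5 and 186 ± 5.65 CPM per kilobase) then stood clear of Klf4 (50.7 ± 19.98 and 48.9 ± 24.5), with no overlap in either group. Mef2c stood in the 7th place in Ct (the 6th without Ct library 2), in the 9th in ECH (12.04 ± 2.67 CPM per kilobase) and stood in the 6th in HF (17.3 ± 1.73). Cebpa stood 6th in ECH (16.7 ± 1.07) and 9th in Ct and HF (12.6 ± 1.53 in HF), although neighbours from the 6th place down overlapped in every group.

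**Figure D1:**
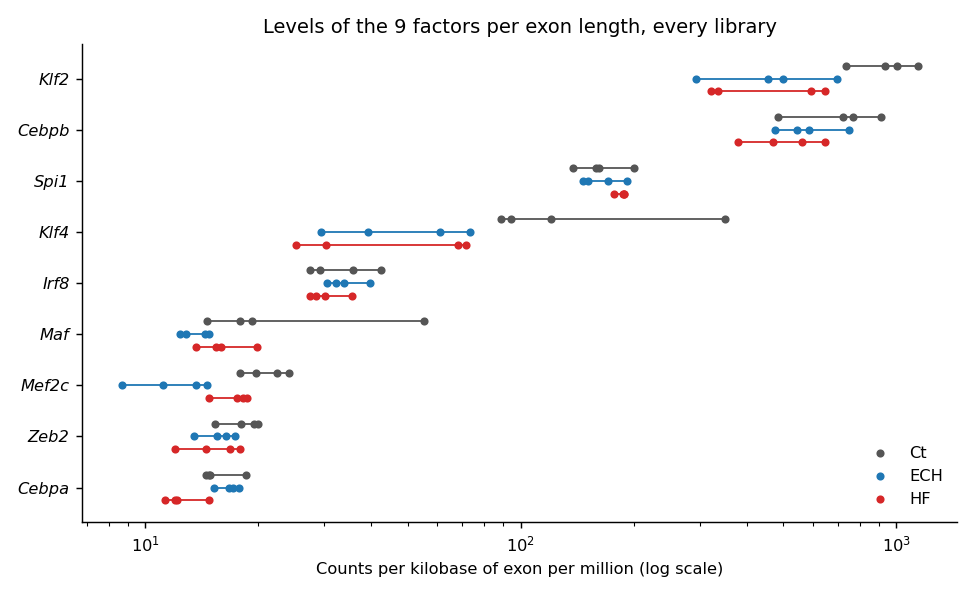
CPM per kilobase of exon (log scale) of the 9 factors, with 1 point per library, a line from the lowest to the highest library, and grey, blue and red for Ct, ECH and HF. Klf2 and Cebpb lead in all 3 groups, and Klf4 lies below Spi1 in every library but Ct library 2, where it stands at 350.5.

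The comparison of Ct with ECH asked which factors differ during the compensated, concentric stage, that of Ct with HF which differ once the heart fails, and that of ECH with HF what separates these stages. The quasi-likelihood test of edgeR was used, and a gene was called when it differed 2-fold or more with a false discovery rate (FDR, by Benjamini-Hochberg over all genes) below 0.05. None of the 9 factors was called in any comparison. Over all 14608 genes, 52 (0.356%) were called between ECH and Ct, 55 (0.377%) between HF and Ct and 0 (0%) between ECH and HF. At an unadjusted p under 0.05, 4 of 9 factors were lower in ECH than in Ct (Maf, Klf2, Klf4 and Mef2c) and none was higher, while 5.89% of all genes were lower. Between HF and Ct, 4 of 9 were lower (Cebpa, Cebpb, Klf2 and Klf4), against 8.72% of all genes. None of these 4 kept such a p with the library run, the immediate early genes or the B cell genes as a covariate. The factors with such a p in HF against Ct were then 1 with the run (Spi1, higher in HF), 0 with the immediate early genes and 1 with the B cell genes (Zeb2, lower). In ECH against Ct there were 4 with the run, 1 with the immediate early genes (Mef2c, lower) and 1 with the B cell genes (Zeb2, lower). The share of all genes with such a p in these fits is not given. Of all genes, the 3 fits in this order called 22, 8 and 1 between ECH and Ct, and 208, 22 and 1 between HF and Ct. Between ECH and HF, Cebpa was higher and Mef2c lower in ECH, 2 of 9, against 7.98% of all genes in either direction. DESeq2 called 0, 1 and 0 factors in the 3 comparisons in this order, against 1.7%, 2.28% and 0.322% of all genes. The likelihood ratio test of edgeR called 1, 2 and 0, against 1.49%, 1.87% and 0.329%. Limma-voom called 0 in each, against 0.575%, 0.89% and 0%. Both comparisons with Ct share the Ct mice. Groups did not overlap for 3 of 9 factors lower in ECH than in Ct (3.64% of all genes), for 2 of 9 lower in HF than in Ct (4.45%) and for 2 of 9 between ECH and HF (6.92% in either direction). The median log2 fold change of the 9 factors was -0.29 between ECH and Ct (0.01 over all genes), -0.32 between HF and Ct (-0.01) and 0.04 between ECH and HF (0.02). In sorted bulk cells, fewer cells of a type and less RNA per cell cannot be told apart.

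**Figure D2:**
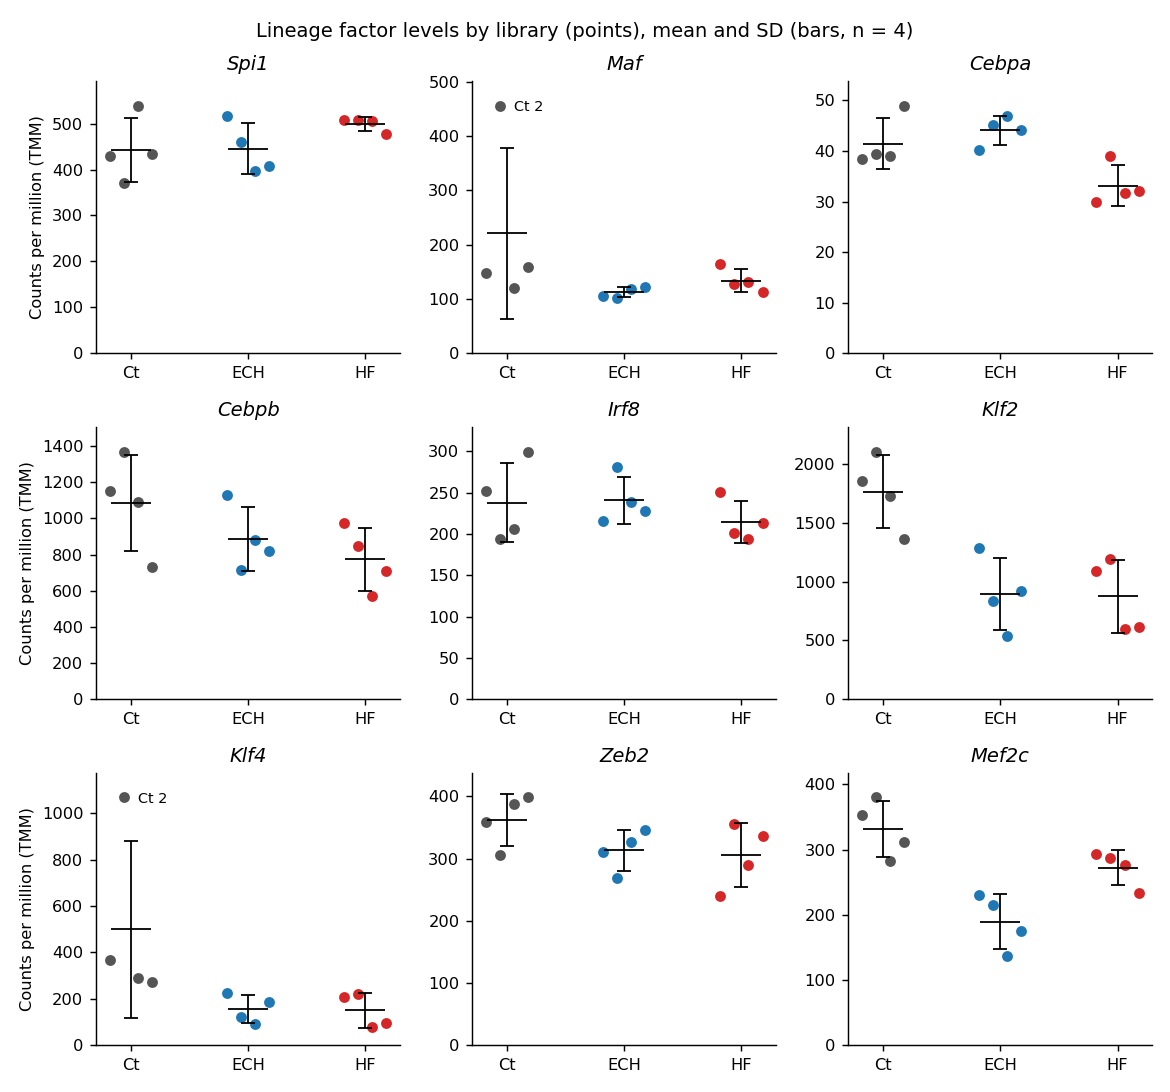
CPM of each factor in every library (points), with the mean and SD of the 4 mice of each group as bars. Ct library 2 stands far above the other Ct libraries for Maf and Klf4, and all Ct points for Klf2, Klf4 and Mef2c lie above all ECH points.

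Klf2 lies on chromosome 8 (GRCm38, 72319033 to 72321656, plus strand) and encodes the factor that keeps monocytes and endothelium quiescent. It measured 1858, 2107, 1729.7 and 1360.3 CPM in Ct libraries 1 to 4, 1285, 839, 541 and 922 in ECH, and 1095, 1193, 593 and 618 in HF. Every ECH and every HF library lay below every Ct library. The mean was 1764 ± 311 CPM in Ct, 897 ± 306 in ECH and 875 ± 314 in HF (SD, n = 4 each). The log2 fold change was -0.98 in ECH (SE 0.28, FDR = 0.166) and -1.01 in HF (SE 0.28, FDR = 0.130), that is, 50.8% and 49.6% of the Ct level, by edgeR's quasi-likelihood test. With the library run as a covariate these values were -0.73 (FDR = 0.630) and -0.47 (FDR = 0.697). With DESeq2 the FDR was 0.0157 in ECH and 0.00969 in HF, and only the HF value also passed the fold threshold. ECH and HF overlapped, with a log2 difference of 0.04 (95% interval -0.56 to 0.64).

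Klf4, on chromosome 4 (55527143 to 55532466, minus strand), encodes a factor needed for monocyte differentiation. It measured 368, 1069, 287 and 270.3 CPM in Ct, 223, 119.7, 89.8 and 186 in ECH, and 208, 219, 76.98 and 92.7 in HF. Ct library 2 stood far above all other libraries, and the other Ct libraries still lay above all ECH and HF libraries. The log2 fold change was -1.69 in ECH (SE 0.49, FDR = 0.168) and -1.74 in HF (SE 0.49, FDR = 0.134). Without Ct library 2 these values were -0.996 (FDR = 0.370) and -1.05 (FDR = 0.224), so the size rested in large part on that mouse. The likelihood ratio test called Klf4 in both comparisons, with an FDR of 0.0258 in ECH and 0.0180 in HF. Between ECH and HF the log2 difference was 0.05 (95% interval -0.97 to 1.08).

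Both Krüppel-like factors moved across libraries with genes of the immediate early response, which are induced within minutes by cell stress or handling. The log2 CPM of Klf2 correlated with the mean log2 CPM of 13 dissociation and immediate early genes at r = 0.938 over 12 libraries, and that of Klf4 at r = 0.834. With group means removed these values were 0.878 and 0.659. With the mean of the 7 B cell genes the correlations were 0.827 for Klf2 and 0.878 for Klf4, and 0.492 and 0.714 with group means removed. The 3 genes with the pattern most like Klf2, among 8647 genes of at least 10 CPM, were Ier2 (r = 0.982), Junb (r = 0.981) and Klf6 (r = 0.977). For Klf4 they were Rhob (r = 0.984), Atf4 (r = 0.974) and Fosb (r = 0.968), and Klf2 and Klf4 correlated with each other at r = 0.934. All points share the same 12 libraries and their scaling, so these values are descriptions. The summed level of the 13 genes was 42255 to 55381 CPM in Ct, 18997 to 43087 in ECH and 20895 to 35696 in HF. All 13 had negative log2 fold changes in both comparisons with Ct, with medians of -0.64 and -0.70, and 8 of 13 had an unadjusted p under 0.05 in each, but none was called. With the mean of these genes as a covariate, an alternative chosen after the values were seen, the log2 fold change of Klf2 was -0.24 in ECH and -0.35 in HF, and that of Klf4 -0.62 and -0.86, each with an unadjusted p above 0.05. With the B cell mean as a covariate, also chosen after the values were seen, Klf2 was at -0.34 and -0.39, and Klf4 turned positive, at 0.22 and 0.09. The B cell mean was 3.48 to 5.24 in Ct, 1.83 to 3.04 in ECH and 2.34 to 2.90 in HF. Ct overlapped neither group, so this fit cannot separate the B cell level from the group. It called 1 of 14608 genes in each comparison with Ct. The part of tissue handling or B cell RNA in the differences of Klf2 and Klf4 was not tested.

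**Figure D3:**
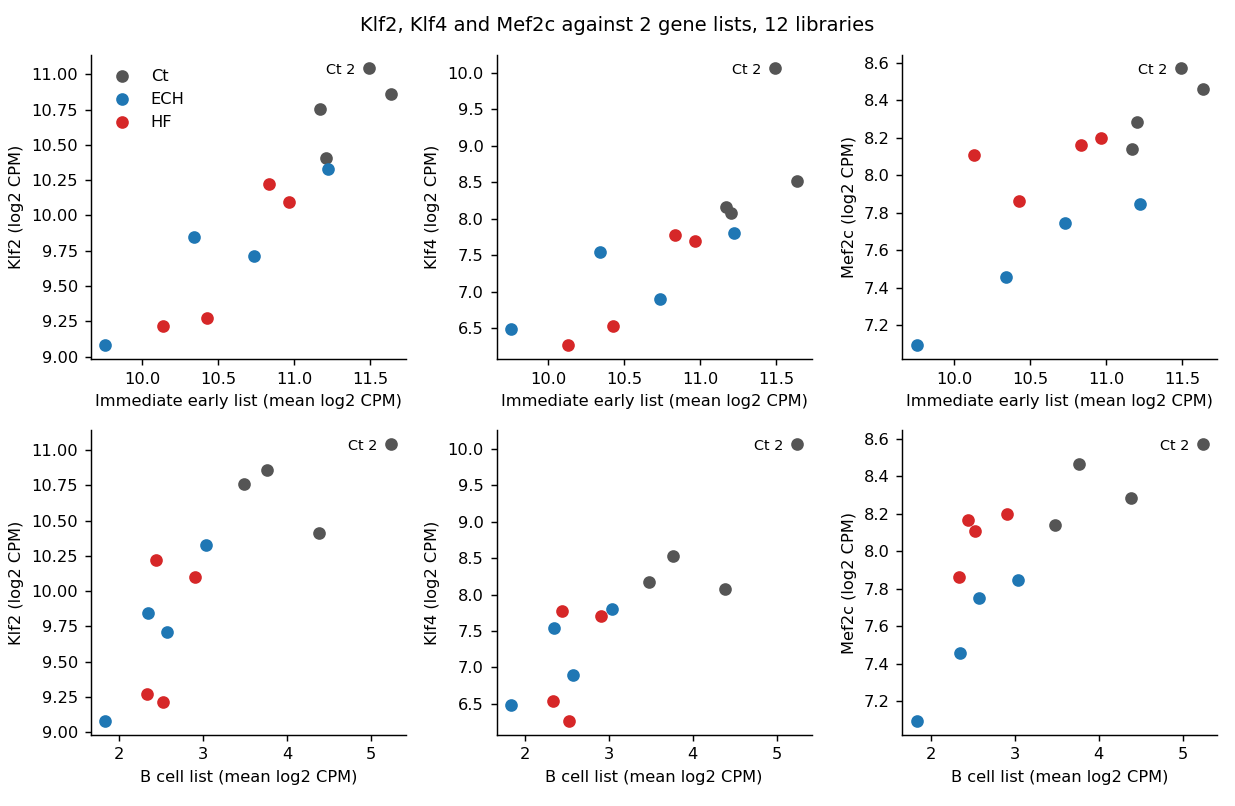
Log2 CPM of Klf2, Klf4 and Mef2c (vertical axes) against the mean log2 CPM of 13 immediate early genes (upper row) and of 7 B cell genes (lower row) in each of the 12 libraries, coloured by group. Klf2 follows the immediate early mean along a single line through all 3 groups, while for Mef2c the ECH libraries lie below the HF libraries at a like immediate early mean.

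Mef2c, on chromosome 13 (83504034 to 83667080, plus strand), measured 353, 380.1, 282 and 311 CPM in Ct, 229.9, 215, 137 and 176 in ECH, and 293, 287, 276 and 233 in HF. The ECH libraries lay below all Ct and all HF libraries, whereas HF overlapped Ct. The mean was 332 ± 43.5 CPM in Ct, 189 ± 41.9 in ECH and 272 ± 27.2 in HF (SD, n = 4 each). Among the 9 factors Mef2c had the lowest p between ECH and Ct, with a log2 fold change of -0.81 (SE 0.17, FDR = 0.0530), at rank 82 of all genes and 57.1% of the Ct level. DESeq2 gave an FDR of 0.000329, the likelihood ratio test 0.00140 and limma-voom 0.0397, and the change was under 2-fold in each. Against HF the log2 fold change of ECH was -0.52 (SE 0.17, FDR = 0.535), and within the run of library numbers that holds HF and ECH replicates 3 and 4 it was -0.80 (FDR = 0.0247). Within the other run, ECH replicates 1 and 2 against Ct, it was -0.58 (FDR = 0.795, unadjusted p = 0.0140 by the quasi-likelihood test). An FDR under 0.05 was given to 962 of 14864 genes in the former run and to 1 of 14838 in the latter, so these FDR values are not alike. HF differed from Ct by -0.28 (95% interval -0.64 to 0.07), a value that turned positive with the library run (0.23), the immediate early mean (0.08) or the B cell mean (0.24) as a covariate.

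Mef2c was closest in pattern to Glcci1 (r = 0.963), Lmo2 (r = 0.949), a LIM-domain partner of GATA and TAL factors, and Fndc4 (r = 0.940). Lmo2 measured 196 ± 28.7 CPM in Ct, 119.7 ± 21.4 in ECH and 154 ± 7.95 in HF (SD, n = 4), with a log2 fold change of -0.71 in ECH (SE 0.15, FDR = 0.0596). Since Mef2c is also a B cell gene, B cell markers are given beside it. All 7 genes of that list, among them Cd79a, Pax5 and Fcmr, had negative log2 fold changes in both comparisons with Ct, with medians of -2.32 and -2.23, and Fcmr was called in both. Pax5, a defining B cell factor, was at 0 in ECH library 4 and HF libraries 1 and 2. Mef2c correlated with the mean of this list at r = 0.778 over 12 libraries and with the immediate early mean at r = 0.804, and with group means removed at 0.738 and 0.852. With this mean as a covariate the log2 fold change of Mef2c was -0.27 between ECH and Ct (FDR = 0.959) and -0.51 between ECH and HF (FDR = 0.473). With the immediate early mean as the covariate it was -0.43 between ECH and Ct (FDR = 0.948). Of 9 cardiomyocyte genes, 8 had negative log2 fold changes in both comparisons with Ct, with medians of -0.44 in ECH and -0.76 in HF, and none was called. The part of B cell RNA, of cardiomyocyte RNA or of tissue handling in the difference of Mef2c from Ct was not tested.

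Maf, on chromosome 8 (115682942 to 115707794, minus strand), measured 147, 456, 121 and 159 CPM in Ct, 106, 102, 119 and 122 in ECH, and 164, 127, 131 and 112 in HF. Ct library 2 stood apart, and the other 11 libraries lay between 102 and 164 CPM. With all libraries the log2 fold change was -0.97 in ECH (SE 0.34, FDR = 0.262) and -0.72 in HF (SE 0.34, FDR = 0.313). Without Ct library 2 it was -0.34 (FDR = 0.422) and -0.09 (FDR = 0.826), and with the B cell covariate it turned positive, at 0.56 and 0.67. The Ct mean without that library was 142 ± 19.7 CPM (SD, n = 3). The closest patterns over the 12 libraries, Ct library 2 included, were those of Zbtb18 (r = 0.972), Luc7l2 (r = 0.963) and Rps29 (r = 0.961). The B cell list was also highest in Ct library 2.

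Cebpa, on chromosome 7 (35119293 to 35121928, plus strand), measured 38.4, 39.4, 38.9 and 48.9 CPM in Ct, 40.2, 45.1, 46.9 and 44.1 in ECH, and 29.8, 39.0, 31.7 and 32.1 in HF. All ECH libraries lay above all HF libraries, by 1.22 CPM between the nearest pair. The log2 difference between ECH and HF was 0.41 (SE 0.14, FDR = 0.546), and its unadjusted p stayed under 0.05 in each of 24 alternative fits, with no FDR under 0.05. Between HF and Ct it was -0.32 (SE 0.14, FDR = 0.282), and between ECH and Ct 0.09 (95% interval -0.21 to 0.39). Its nearest patterns were the chromatin and zinc-finger genes Zmym2 (r = 0.915), Chd1 (r = 0.908) and Zfp281 (r = 0.907).

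Cebpb is a single-exon gene on chromosome 2 (167688915 to 167690418, plus strand). It measured 1152, 1370.4, 1089 and 729 CPM in Ct, 1129, 714, 881 and 818 in ECH, and 972, 845, 569.9 and 709 in HF, and all groups overlapped. The log2 fold change was -0.29 in ECH (SE 0.21, FDR = 0.643) and -0.49 in HF (SE 0.21, FDR = 0.290). Cebpb was closest to Cd14 (r = 0.893), a surface marker of the sort and an endotoxin co-receptor, to Cdkn1a (r = 0.891) and to the immediate early phosphatase gene Dusp1 (r = 0.889). Its correlation with Klf4 was r = 0.811 and with Klf2 r = 0.774. The log2 ratio of Cebpb to Cebpa counts was 4.68 ± 0.54 in Ct, 4.31 ± 0.35 in ECH and 4.52 ± 0.36 in HF. The 3 differences had p from 0.371 to 0.657 (exact permutation test, two-sided). The log2 ratio of Klf4 to Klf2 counts was -2.06 ± 0.73, -2.56 ± 0.21 and -2.63 ± 0.26 in these groups, with p from 0.143 to 0.657 in the same test. Without Ct library 2 the Ct mean was -2.42, and the differences of ECH and HF from it went from -0.50 to -0.14 and from -0.57 to -0.21. Over these 6 exact permutation tests the adjusted p lay between 0.643 and 0.657, and no p under 0.0286 can be reached in groups of 4.

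Spi1, the pioneer factor of the lineage on chromosome 2 (91082390 to 91115756, plus strand), measured 429, 371, 539 and 435 CPM in Ct, 517, 461, 396 and 408 in ECH, and 508, 509, 506 and 477 in HF. The groups overlapped. The log2 fold change was 0.01 in ECH (95% interval -0.28 to 0.30) and 0.17 in HF (-0.11 to 0.46), so a 2-fold difference lay outside both intervals. With the library run as a covariate the HF value was 0.46 (SE 0.21, FDR = 0.326), and without Ct library 3 it was 0.28 (FDR = 0.238). The sign of the ECH value depended on the setting, as it turned negative in 11 of 24 alternative fits. Cmtm3 (r = 0.959), Ctbp1 (r = 0.958) and Ap2m1 (r = 0.943) had the most similar patterns.

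Irf8, on chromosome 8 (120736358 to 120756694, plus strand), drives monocyte against granulocyte fate. It measured 252, 194, 206 and 299.8 CPM in Ct, 216, 281, 239 and 227 in ECH, and 251, 201, 194 and 213 in HF, with full overlap of the groups. The log2 fold change was 0.02 in ECH (95% interval -0.32 to 0.35, negative in 6 of 24 alternative fits) and -0.15 in HF (-0.48 to 0.18). Rev1 (r = 0.809), Kif13b (r = 0.798) and St6galnac6 (r = 0.788) came nearest to it, with lower values than for any other factor here.

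Zeb2, a repressor required for monocyte and Mφ identity on chromosome 2 (44983632 to 45117395, minus strand), measured 359, 305, 388 and 399 CPM in Ct, 310.1, 269, 327 and 347 in ECH, and 240.3, 356, 289.5 and 336 in HF. Ct overlapped both other groups. The log2 fold change was -0.21 in ECH (95% interval -0.53 to 0.10) and -0.25 in HF (-0.56 to 0.07). With the B cell covariate the values were -0.56 (FDR = 0.952) and -0.58 (FDR = 0.387). Clint1 (r = 0.908), Wdr37 (r = 0.902) and Fut8 (r = 0.889) resembled it most.

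**Figure D4:**
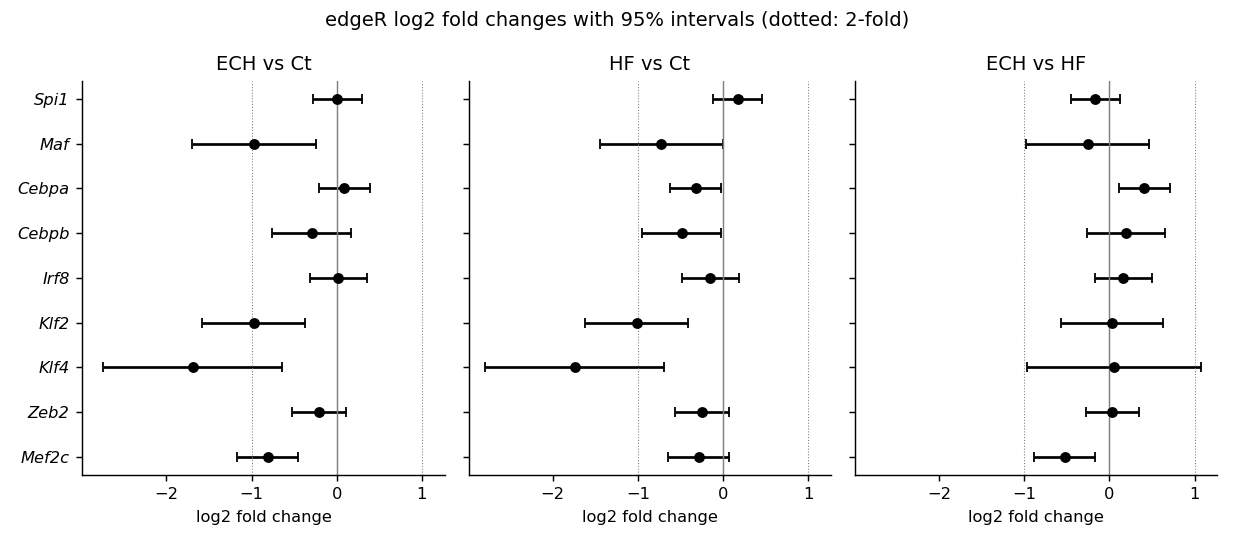
Log2 fold change (horizontal axes) of each factor in the 3 comparisons, from edgeR's quasi-likelihood fit, with 95% intervals as bars and dotted lines at 2-fold. The estimates for Klf2 and Klf4 lie near or beyond the 2-fold line in both comparisons with Ct, and the intervals of Spi1, Irf8, Zeb2 and Cebpa stay inside it.

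The other members of each factor's family were counted on 6 lists of 4 to 15 genes. Of 45 family genes tested, 0 were called between ECH and Ct and 1, Ets1, between HF and Ct. Of 27 other myeloid factors, which belong to none of these families, 0 and 1 were called. Ets1, an ETS factor of lymphocytes, measured 53.9, 101, 29.3 and 58.5 CPM in Ct, 26.8, 21.1, 14.2 and 20.3 in ECH, and 14.2, 21.97, 23.2 and 15.5 in HF. It fell in HF with a log2 fold change of -1.70 (SE 0.33, FDR = 0.0394), while in ECH the value was -1.56 (SE 0.33, FDR = 0.0589). B cell and T and NK cell markers were lower in the same libraries, with 8 of 8 T and NK cell genes negative in both comparisons, and their part in the Ets1 value was not tested. The call held in 7 of 23 alternative fits. Leaving out a single library ended it in each case but Ct library 3 and ECH library 3 (FDR up to 0.125), and without Ct library 2 the value was -1.33 (FDR = 0.0695). With the B cell covariate it was -0.34 (FDR = 0.799). Bhlhe40, a basic helix-loop-helix repressor needed for the proliferation of some tissue Mφ, measured 29.8, 16.7, 41.4 and 33.0 CPM in Ct and 76.0, 76.9, 87.96 and 110.0 in HF. It rose in HF with a log2 fold change of 1.54 (SE 0.31, FDR = 0.0455), and the ECH value was 1.16 (SE 0.30, FDR = 0.128), with ECH between 38.9 and 106 CPM. The call held in 10 of 23 alternative fits, with log2 fold changes from 0.99 to 2.40 and an FDR up to 0.495 over all of them. Leaving out a single library ended it in each case but Ct library 3 and ECH libraries 2 and 4 (FDR up to 0.141).

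The other named genes of these lists were not called. Of the ETS list, Spib and Elf1 had log2 fold changes of -1.99 and -0.21 in ECH and of -0.69 and -0.39 in HF. Irf4, an interferon regulatory factor of lymphocytes and alternatively activated Mφ, measured 54.4 ± 9.36 CPM in Ct, 26.2 ± 10.9 in ECH and 33.5 ± 2.96 in HF, with Ct above all other libraries (log2 fold changes -1.06, FDR = 0.0871, and -0.70, FDR = 0.204). Irf1 stood at -0.77 in both comparisons with Ct, and Irf7 at 0.45 in ECH and 0.66 in HF. Runx1, a core factor of blood development, measured 302 ± 43.5 CPM in Ct, 199.97 ± 35.4 in ECH and 211 ± 22.1 in HF (log2 fold changes -0.60, FDR = 0.117, and -0.52, FDR = 0.144). Runx3 was at 22.7 ± 9.55, 46.2 ± 14.7 and 28.6 ± 4.2 CPM. Klf6, which had a pattern like that of Klf2, measured 2595 ± 272 CPM in Ct, 1759.5 ± 470.3 in ECH and 1757 ± 477 in HF, while Klf10 was at 129 ± 23.5, 193 ± 59.8 and 123 ± 17.5 CPM. The KLF list without Klf2 and Klf4 had a median log2 fold change of 0.31 in ECH and -0.02 in HF.

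Differences between ECH and HF that had the lowest p in their lists included Mafg (63.2 ± 8.23 CPM in ECH, 47.6 ± 8.06 in HF), Mafk (89.2 ± 13.5 and 66.2 ± 5.001), Cebpg (119 ± 8.07 and 93.9 ± 6.99) and Klf9 (128 ± 67.0 and 37.5 ± 13). None was called. Bach2, a repressor of lymphocytes, had log2 fold changes of -0.85 in ECH and -0.89 in HF, and Ddit3 and Cebpd of the C/EBP list -0.69 and -0.43 in ECH. Zeb1, Mef2a and Mef2d lay between -0.54 and 0.06 in ECH and between -0.55 and -0.06 in HF.

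Genes that these factors are known to act on were counted on 5 lists, of which 45 genes were tested, and the median log2 fold changes of the lists lay between -0.30 and 0.19 in ECH and between -0.29 and 0.03 in HF. A single target, Cd209f, was called. This C-type lectin gene of perivascular resident Mφ, on the list linked to Maf, measured 14.6, 38.6, 28.8 and 23.2 CPM in Ct, 3.01, 4.57, 2.38 and 5.69 in ECH, and 8.12, 17.6, 48.7 and 15.6 in HF. It fell in ECH by 2.75 on the log2 scale (SE 0.51, FDR = 0.0346), and all ECH libraries lay below all others. In HF the value was -0.23 (SE 0.48, FDR = 0.864), and the difference between ECH and HF was -2.52 (SE 0.51, FDR = 0.488). The call held in 9 of 24 alternative fits, with log2 fold changes from -3.36 to -2.26 over all of them. Leaving out a single library ended it in each case but Ct library 3 and HF libraries 1 and 3 (FDR up to 0.140). Other genes of this list went different ways in ECH: Folr2 had a log2 fold change of -0.56 (FDR = 0.216) and Cd163, the haemoglobin scavenger receptor, of 0.72 (FDR = 0.241).

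Of the PU.1 targets, Itgam, which encodes the CD11b used in the sort, measured 373 ± 144 CPM in Ct, 709 ± 63.3 in ECH and 579 ± 126 in HF (log2 fold changes 0.92, FDR = 0.132, and 0.63, FDR = 0.239). Ncf1, an oxidase subunit, was at 357 ± 39.1, 512 ± 115 and 355 ± 9.41 CPM, and Cd68 at 975 ± 50.8, 1106 ± 93.8 and 1294 ± 88.1 CPM. Of the C/EBP targets, Il6 measured 31.8 ± 22.4 CPM in Ct, 8.91 ± 3.57 in ECH and 9.49 ± 2.98 in HF (log2 fold changes -1.83, FDR = 0.126, and -1.74, FDR = 0.127), and Chil3 37.6 ± 12, 115 ± 58.3 and 69.5 ± 49.3 CPM. Nos2 of this list was too low to be tested. Of the IRF8 targets, Ciita and Cst3 had log2 fold changes of -0.76 and -0.42 in ECH. Of the KLF2 and KLF4 targets, Thbd, thrombomodulin, was at 66.4 ± 13.6, 43.7 ± 3.12 and 47.9 ± 13.7 CPM. No gene of these lists was called.

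**Figure D5:**
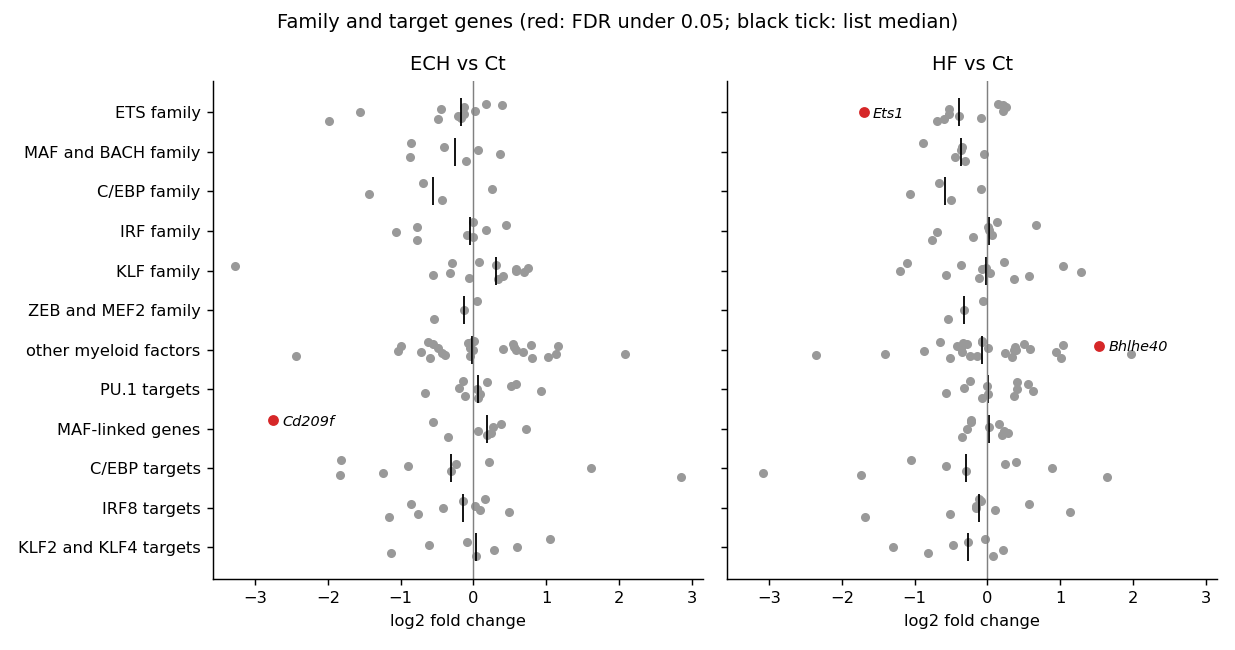
Log2 fold change of each gene of 6 family lists, a list of other myeloid factors and 5 target lists in ECH and in HF against Ct, with 1 point per gene, a black tick at the median of each list, and red points with names where the FDR was under 0.05. Cd209f in ECH, and Ets1 and Bhlhe40 in HF, are the red points, and the medians lie between -0.58 and 0.31.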

How the data were processed

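Cardiac CD14+/CD64+ Mφ of 12 mice gave 1 RNA library per mouse, and the treatment in the labels set the groups (4 Ct, 4 ECH and 4 HF). According to the labels and the study's methods, SMART-Seq v4 cDNA was read on a NextSeq instrument. Trimmomatic was used for trimming, TopHat2 for alignment (mm10) and featureCounts for assigning reads to genes. The deposited values are raw counts of 24445 gene symbols, not normalized. The sources used here name no tool versions, annotation or strand setting. Without strand, reads of a gene and an antisense partner cannot be told apart.

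Counts were scaled by TMM and tested in edgeR 4.0.16 (R 4.3.3) with the quasi-likelihood method, after filterByExpr by group, in a single fit of all 12 libraries with Benjamini-Hochberg adjustment over 14608 genes. CPM are TMM-scaled. Log2 ratios of counts (1 added) were compared by two-sided exact permutation tests over libraries. The alternatives were DESeq2 1.42.0, edgeR's likelihood ratio test, limma-voom 3.58.1 with quality weights, RLE scaling, no filter, a fit of the compared groups alone, a block for the replicate number, the run of library numbers as a covariate or 1 run only, an FDR with no fold threshold, other added counts in the ratios (0.5 and 5), and each library left out. Covariates for immediate early and B cell genes were added after seeing the data. The B cell mean of Ct overlapped neither that of ECH nor that of HF, and the immediate early mean of Ct did not overlap that of HF. In simulated data for ECH against Ct on 14608 genes, the quasi-likelihood test gave an FDR under 0.05 to 32% of 100 genes changed by 2-fold and 69% of 100 changed by 4-fold.

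The members and gene lists were chosen with earlier results of these data known. All members were described, and of the family and target lists the text gives genes with an FDR under 0.05 and those among the 2 lowest p in a comparison. The 3 genes of highest Pearson correlation with each member were taken from genes of at least 10 CPM on average. Genes such as Fcmr and Pax5 were named outside this rule, as markers. Some planned genes, and a planned ratio, are not reported here. Figures were drawn with matplotlib 3.10.9.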

Additional observations from a re-analysis of the deposited data

Results flagged for a closer look

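In 4 of 27 groups of 4 libraries, a single library lay so far from the other 3 that its gap to the nearest of them exceeded Dixon's critical share of the group's range at the 95% level. Chance alone flags about 1 in 20 such groups. Ct library 2 held 456 CPM of Maf, against 121 to 159 in the other Ct libraries, and 1069 CPM of Klf4, against 270.3 to 368. Ct library 4 held 48.9 CPM of Cebpa, against 38.4 to 39.4. HF library 4 held 477 CPM of Spi1, against 506 to 509, a group with a small spread.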

How the results depend on the processing

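No factor was called in the reported fits, and the number called was 1 (Klf4) between ECH and Ct with the likelihood ratio test, and 1 (Klf2) with DESeq2 and 2 (Klf2 and Klf4) with the likelihood ratio test between HF and Ct. These tests called more of all genes too, 218 and 273 with the likelihood ratio test and 333 between HF and Ct with DESeq2. In every other setting the number was 0. Mef2c had an FDR under 0.05 between ECH and Ct in 5 of 24 alternatives (0.0418 to 0.157 when leaving out a library) and between ECH and HF in 2 of 24 (0.0242 with the library run as a covariate, 0.0247 within 1 run). In these last 2 fits 434 and 962 of all genes had such an FDR, against 0 in the reported fit. With the replicate number as a block, 0 factors were called in each comparison, and 22, 18 and 0 of all genes. Libraries of the same number correlated at -0.108 to 0.0957 after group means were removed, so the numbers were not taken to pair the mice.

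Log2 fold changes that turned sign were as follows, and the cause was not tested. Between ECH and Ct, Spi1 was -0.00138 with DESeq2, -0.00137 with RLE, -0.00522 with only the groups compared, -0.0800 without Ct 2 and HF 1 and -0.104 with the B cell covariate (-0.0710 to 0.116 when leaving out a library). Irf8 was -0.0644 with limma-voom, -0.0796 without Ct 2 and HF 1 and -0.0167 with the B cell covariate (-0.0684 to 0.148). With the B cell covariate Maf was 0.563, Klf4 0.223 and Cebpb 0.0672, and with the immediate early covariate Cebpb was 0.0702. Between HF and Ct, Mef2c was 0.227 with the library run, 0.0838 with the immediate early and 0.239 with the B cell covariate, with which Maf was 0.674 and Klf4 0.0948. Between ECH and HF, Zeb2 was -0.0386 with limma-voom and -0.0658 without Ct 2 and HF 1 (-0.0623 to 0.119). With the library run as a covariate and within 1 run, Klf2 was -0.258 and -0.259 (-0.189 to 0.222 when leaving out a library) and Klf4 -0.112 and -0.113 (-0.177 to 0.297).

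When leaving out a library, the difference in the log2 ratio of Klf4 to Klf2 ranged from -0.68 (without Ct 3) to -0.14 (without Ct 2) between ECH and Ct, from -0.75 to -0.21 between HF and Ct and from -0.0324 to 0.16 between ECH and HF. That of Cebpb to Cebpa ranged from -0.63 to -0.23, from -0.42 (without Ct 4) to -0.012 (without Ct 2) and from -0.38 to -0.046 in the same order.

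Over all genes, the number called was 52 between ECH and Ct (1 to 248 over the settings), 55 between HF and Ct (1 to 333) and 0 between ECH and HF (0 to 370), with the highest from DESeq2 in the first 2 and from 1 library run in the last. Leaving out a single library gave 11 (Ct 1) to 95 (Ct 3) and 15 (Ct 1) to 103 (Ct 3) in the comparisons with Ct. Counts are deep for all 9 factors. How far the spread between 4 mice or the run of library numbers limits these comparisons was not tested.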
